A study of Citrus maxima with 6 samples.

Results

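The genes described here are 5 genes whose names in the study are enzymes of sugar, triose phosphate and serine metabolism, among 29406 genes measured in the ripe pericarp (the fruit peel) of pummelo. They are Cs6g22020, matched to the alpha-1,4 glucan phosphorylase L-1, Cs5g19060, matched to sucrose-phosphate synthase 4, Cs2g14940, matched to the A form of glyceraldehyde-3-phosphate dehydrogenase (GAPDH A), orange1.1t04496, matched to D-3-phosphoglycerate dehydrogenase, and Cs3g16860, matched to a serine hydroxymethyltransferase (SHMT). They were chosen by their difference between mutant and wild type in the same libraries, so that difference is given as a description, and no test of it is used as support. The names are protein matches from the study's own list of differential genes. No annotation of the sweet orange gene models was used here, so the position of each gene in the genome is not given.

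WT was 'Guanxi' pummelo and MT was an orange-pericarp bud mutant of it, which arose spontaneously in an orchard, was propagated by grafting and accumulates β-carotene in the pericarp. Both genotypes were sampled as ripe pericarp with no treatment, in 3 biological replicates each (WT1 to WT3 and MT1 to MT3), which the submitters call pools. The number of fruits per pool and the age of the trees are not given in the sources used here. MT is 1 bud mutation, so a difference from WT cannot be assigned to a particular lesion.

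Plants hold carbon as starch in plastids and as sucrose in the cytosol and vacuole. Glucan phosphorylase releases glucose 1-phosphate from the ends of glucan chains, and sucrose-phosphate synthase joins UDP-glucose and fructose 6-phosphate in the step that commits carbon to sucrose. GAPDH A is a subunit of the plastid enzyme that in Arabidopsis leaves works in the Calvin-Benson cycle, while the glycolytic form in the cytosol is encoded by other genes. Serine is made from the glycolytic intermediate 3-phosphoglycerate by a plastid route whose first enzyme is phosphoglycerate dehydrogenase, and by SHMT, which interconverts glycine and serine and in leaf mitochondria serves photorespiration. In ripening citrus peel, plastids lose chlorophyll and become chromoplasts.

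For 4 of the 5 genes the study designed primers for quantitative PCR, and these are the only sequences of the transcripts in the materials used here. They are shown under the gene identifiers that the study gave them. They were not aligned to any sequence here, so which transcripts they match was not checked. They are written 5′ to 3′, with the last 5 bases, the 3′ end from which the polymerase extends, in capitals.
Cs6g22020 forward: cacgacactgcggGTGAA
Cs6g22020 reverse: ggtatggattccctgcaTTAGG
Cs5g19060 forward: gaagctgaaaaatggcTGGAA
Cs5g19060 reverse: ttcccgcatccaataTTGCT
orange1.1t04496 forward: tccaattataccactcctccTTCAT
orange1.1t04496 reverse: gatgtttccagggctgttTGTAA
Cs3g16860 forward: gtcacaaatgggatgaagaTTCTG
Cs3g16860 reverse: gcacgccggacTTCCA
Cs2g14940 had no primer pair in that list. The PCR measurements and the sugar and amino acid contents that the study measured are not analysed here.

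Values are RPKM, uniquely mapped reads scaled to the length of the gene model and to the total of the library, which allows levels of genes of different length to be compared. The steps between RPKM values gave back the whole reads behind them, with library totals between 9253681 and 11108186 reads. Among the WT libraries the values across genes correlated with r between 0.970 and 0.978. MT2 stood furthest from WT (r 0.900 to 0.920), while MT3 was closer to the WT libraries (r 0.964 to 0.968) than to MT1 and MT2 (r 0.961 and 0.946). These correlations are across genes, which are not independent replicates, and the log2 differences of the 5 genes are also given without MT2 and without MT3. A ratio of means is given without a library wherever leaving it out moves the ratio by over 1.5 times. For those genes the lowest ratio with a library left out is given as well. In pooled tissue, fewer cells of a type and less RNA per cell cannot be told apart.

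The glucan phosphorylase Cs6g22020 had its higher level in MT. It stood at 6.41, 6.83 and 5.94 RPKM in WT1, WT2 and WT3 and at 12.9, 18.9 and 12.8 RPKM in MT1, MT2 and MT3. All 3 WT libraries lay close together, MT1 and MT3 were nearly equal, MT2 was highest, and the genotypes did not overlap. The mean was 6.39 ± 0.448 RPKM in WT and 14.9 ± 3.46 RPKM in MT (SD, n = 3 each), a ratio of 2.33, and the lowest MT value was 1.88 times the highest WT value. These levels rest on 612 WT reads and 1468 MT reads over a gene model of 3222 bp. By the study's limits for low, medium and high expression (3 and 15 RPKM), the gene was at a medium level in 5 libraries and at a high level in MT2.

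The sucrose-phosphate synthase Cs5g19060 had its lower level in MT and was scarce in both genotypes. It stood at 1.09, 0.949 and 0.753 RPKM in WT1 to WT3, from 39, 37 and 30 reads over 3849 bp. In MT1, MT2 and MT3 it stood at 0.281, 0.0263 and 0.451 RPKM, from 12, 1 and 17 reads. The genotypes did not overlap, all values were in the low class, and MT2 was nearly without reads. The mean was 0.933 ± 0.171 RPKM in WT and 0.253 ± 0.214 RPKM in MT (SD, n = 3 each), so WT was 3.69 times MT. Without MT3 the ratio was 6.08, and without MT2 it was 2.55.

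Counting error is large for this gene. The exact Poisson 95% interval ran from 0.508 to 1.08 RPKM in WT3, the lowest WT library, and from 0.263 to 0.723 RPKM in MT3, the highest MT library, so these overlap. The interval of MT2 ran from 0.000666 to 0.146 RPKM and lay below those of all 3 WT libraries. Against the single read of MT2, the 106 WT reads gave a WT to MT2 ratio of 35.2 with an exact Clopper-Pearson 95% interval from 6.19 to 1405. Such intervals cover counting error only, not variation between fruits.

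The phosphorylase and the synthase can also be set against each other within a library. The RPKM of the phosphorylase Cs6g22020 divided by that of the synthase Cs5g19060 was 5.85, 7.20 and 7.88 in WT1, WT2 and WT3. It was 46.0 in MT1 and 28.5 in MT3, and the value of 718 in MT2 has the 1 read as its denominator. A ratio within a library does not depend on how that library was scaled. Since the genes were chosen in opposite directions without overlap, the ratios of the genotypes had to separate, and only their size is a description.

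GAPDH A, Cs2g14940, showed the widest difference of the 5 genes. It stood at 0.297, 0.217 and 0.743 RPKM in WT1, WT2 and WT3, which is 5, 4 and 14 reads over 1820 bp. In MT1, MT2 and MT3 it stood at 4.65, 12.3 and 4.21 RPKM, which is 94, 221 and 75 reads. The gene thus rested on few reads in WT and was in the medium class in MT, with WT3 above the other WT libraries and MT2 far above the other MT libraries. The mean was 0.419 ± 0.284 RPKM in WT and 7.05 ± 4.54 RPKM in MT (SD, n = 3 each), a ratio of 16.8. The ratio was 10.6 without MT2 and 27.4 without WT3. The WT mean rests on 23 reads in all, and the lowest MT value was 5.66 times the highest WT value. The highest bound of a WT counting interval was 1.25 RPKM, in WT3, and the lowest bound of an MT interval was 3.31 RPKM, in MT3.

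In the plastid route to serine, phosphoglycerate dehydrogenase, orange1.1t04496, had its higher level in MT. It stood at 2.11, 2.51 and 2.93 RPKM in WT1, WT2 and WT3 and at 12.6, 16.2 and 7.89 RPKM in MT1, MT2 and MT3. All WT libraries were in the low class, MT1 and MT3 in the medium class and MT2 in the high class, and the genotypes did not overlap. The mean was 2.52 ± 0.408 RPKM in WT and 12.2 ± 4.18 RPKM in MT (SD, n = 3 each), a ratio of 4.86, from 20, 26 and 31 reads in WT1 to WT3 and 143, 164 and 79 reads in MT1 to MT3 over 1023 bp. The lowest MT value was 2.69 times the highest WT value.

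SHMT, Cs3g16860, was the most abundant of the 5 transcripts and had its lower level in MT. It stood at 86.6, 67.1 and 88.2 RPKM in WT1, WT2 and WT3 and at 29.5, 42.2 and 64.0 RPKM in MT1, MT2 and MT3. MT1 was lowest, and MT3 came close to WT2, so that the lowest WT value was 1.05 times the highest MT value. The counting intervals of WT2 (63.5 to 70.7 RPKM) and MT3 (60.5 to 67.6 RPKM) overlapped. These values are not rescaled between libraries. The median ratio of a library to the mean level of each gene was 0.908 in WT2 and 1.07 in MT3. This shift brings the 2 values closer together than rescaling would. The mean was 80.6 ± 11.8 RPKM in WT and 45.2 ± 17.4 RPKM in MT (SD, n = 3 each), so WT was 1.78 times MT, from 4779 WT reads and 2737 MT reads over 1997 bp.

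**Figure D1:**
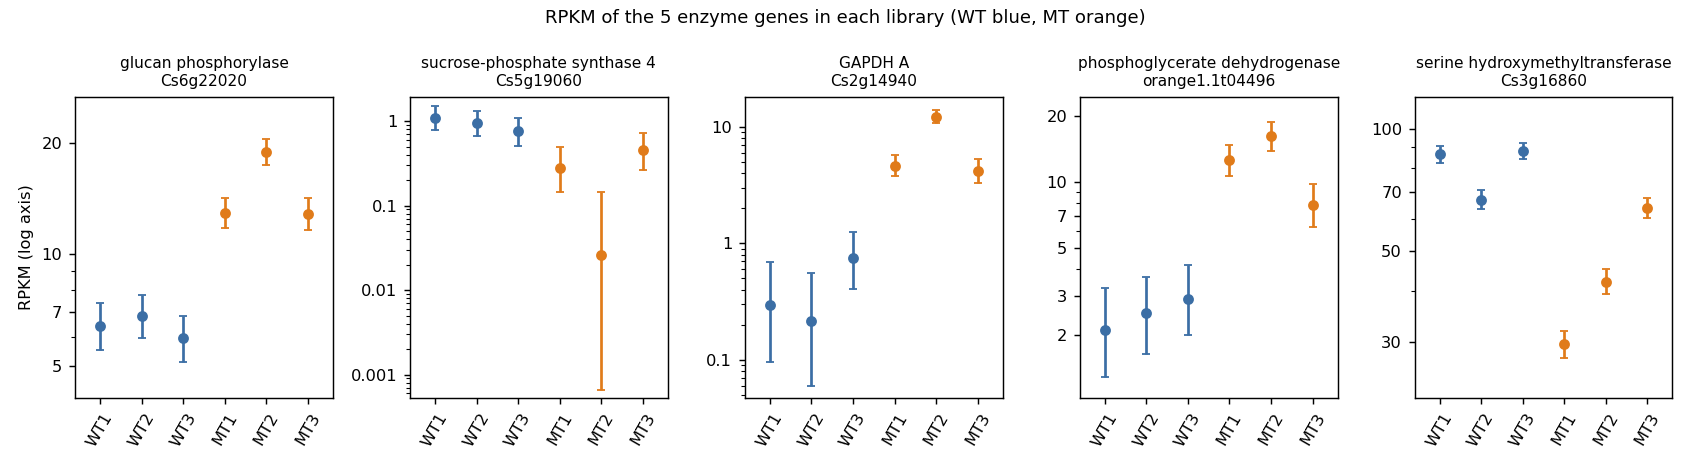
RPKM of each of the 5 genes in the 3 WT libraries (blue) and the 3 MT libraries (orange), on a separate log axis for each gene. Bars are exact Poisson 95% counting intervals from the recovered reads. Values are not rescaled between libraries. The phosphorylase, GAPDH A and phosphoglycerate dehydrogenase are higher in every MT library, and the synthase and SHMT are lower, with MT3 of SHMT at 64.0 RPKM beside WT2 at 67.1 RPKM.

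Within each library, SHMT transcripts outnumbered those of phosphoglycerate dehydrogenase per kilobase, but by much less in MT. The RPKM of Cs3g16860 divided by that of orange1.1t04496 was 41.0, 26.7 and 30.1 in WT1, WT2 and WT3. It was 2.35, 2.60 and 8.11 in MT1, MT2 and MT3. The choice of the 2 genes, in opposite directions and without overlap, fixes that these ratios separate the genotypes. MT3 was the MT library nearest to WT.

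A second gene model, orange1.1t04497, carries the next identifier and the same protein match as orange1.1t04496. It stood at 2.18, 2.62 and 2.85 RPKM in WT1, WT2 and WT3 and at 16.1, 23.7 and 8.97 RPKM in MT1, MT2 and MT3, over 1732 bp. The library order was the same for both models. In WT the RPKM of orange1.1t04497 divided by that of orange1.1t04496 was 1.03, 1.04 and 0.972, close to equal levels per length. In MT it was 1.28, 1.46 and 1.14, above the WT ratios in all 3 libraries. The WT ratios rest on few reads, 35, 46 and 51 of orange1.1t04497 and 20, 26 and 31 of orange1.1t04496. Whether the ratios of the genotypes differ by more than counting error was not tested. Whether these are 2 neighbouring copies or parts of 1 gene is not known from the sources used here, and reads that fit both equally well would be missing from both, since uniquely mapped reads alone were counted. The values of phosphoglycerate dehydrogenase are uncertain to that extent.

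**Figure D2:**
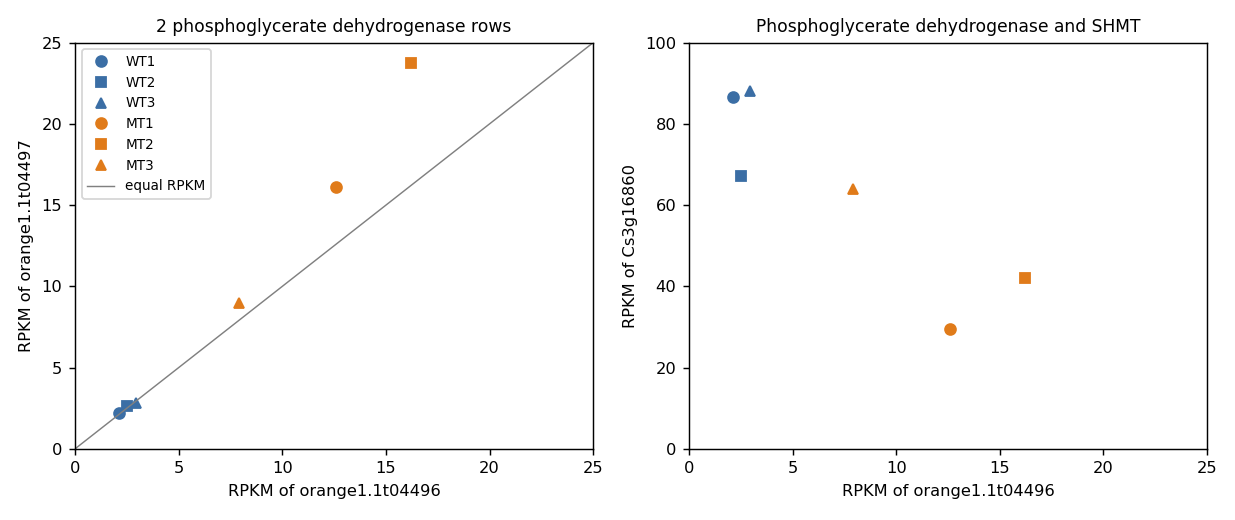
Left, RPKM of orange1.1t04497 against RPKM of orange1.1t04496 in each library, with the line of equal RPKM. Right, RPKM of SHMT (Cs3g16860) against RPKM of orange1.1t04496. Each point is 1 library (WT blue, MT orange). The 3 WT libraries lie close to the line of equality, the 3 MT libraries lie above it, and MT3 is the MT library nearest to WT in both panels.

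To place these differences among those of other genes, the difference of mean log2(RPKM + 0.5) between MT and WT was taken less the median of 0.15 over the 16719 genes with a mean of at least 0.3 RPKM, so that 0 is the typical gene. On this scale GAPDH A Cs2g14940 differed by 2.77 (SE 0.43), phosphoglycerate dehydrogenase orange1.1t04496 by 1.88 (SE 0.28), and the phosphorylase Cs6g22020 by 0.99 (SE 0.19). The synthase Cs5g19060 differed by -1.11 (SE 0.29) and SHMT Cs3g16860 by -1.04 (SE 0.27). In size these stood at percentiles 99.6, 98.3, 91.9, 93.8 and 92.8 of all genes tested. The constant of 0.5 understates the change of scarce genes, which touches the synthase and GAPDH A. Without MT2 the differences were 2.35 for GAPDH A, 1.69 for phosphoglycerate dehydrogenase, 0.84 for the phosphorylase, -0.84 for the synthase and -0.99 for SHMT. Without MT3 they were 3.03, 2.15, 1.07, -1.31 and -1.33 in the same order.

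All 5 genes passed the filter on low values. Because they were chosen on this contrast, the following counts are descriptions from which nothing is read. All 5 had WT and MT libraries that did not overlap, as did 28.6% of all genes tested. The 3 higher genes stand beside 23.3% of tested genes that did not overlap and were higher in MT, and the 2 lower genes beside 5.36% that were lower. These shares use RPKM with the median difference of 0.15 left in. In limma with Benjamini-Hochberg adjustment over all genes tested, 0 of the 5 had an adjusted p under 0.05, beside 0.0359% of genes tested (0.0179% higher and 0.0179% lower). At an unadjusted p under 0.05, limma called 5 of 5, beside 21.8% of genes tested. After adjustment, limma voom on the recovered reads called 0 of 5, beside 0 of all 16719 genes tested. Without MT3, 4 of the 5 were called after adjustment, beside 5.17% of genes tested.

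The mutant libraries kept a similar order across the 5 genes. MT3 lay nearest to the WT mean in 5 of 5 genes, on the scale of log2(RPKM + 0.5). MT2 lay furthest from it in 4 of 5, the exception being SHMT, where MT1 was furthest. Parts of this order are within counting error. The counting intervals of MT1 and MT3 overlapped for the phosphorylase (distances of 0.962 and 0.955), GAPDH A and the synthase. Those of MT1 and MT2 overlapped for the synthase and phosphoglycerate dehydrogenase. Among the 4789 tested genes without overlap, MT3 was nearest in 54.5% and MT2 furthest in 71.7%, so this order was the common one in these libraries and is not particular to the 5 genes.

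**Figure D3:**
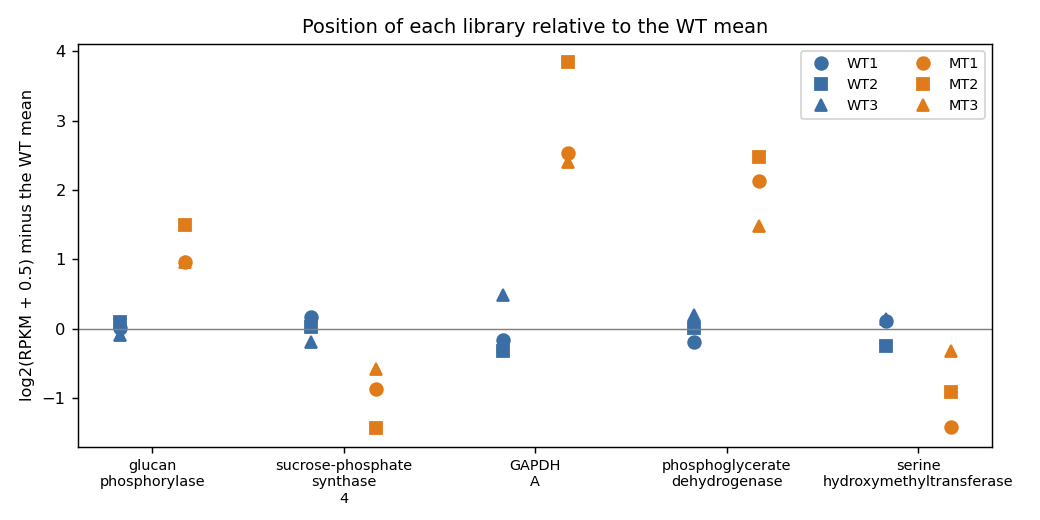
Difference of log2(RPKM + 0.5) from the WT mean of the gene, for each gene and library (WT blue, MT orange, replicate by symbol). A value of 0 is the WT mean. MT2 is the furthest MT library in all genes but SHMT, where MT1 is furthest, and MT3 is the nearest in all 5. For the phosphorylase MT1 and MT3 are nearly equal, at 0.962 and 0.955.

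On the scale of log2(RPKM + 0.5), replicate spread was wider in MT than in WT for each of the 5 genes. The SD of log2(RPKM + 0.5) was 0.09 in WT and 0.31 in MT for the phosphorylase, 0.18 and 0.43 for the synthase, and 0.42 and 0.80 for GAPDH A. It was 0.20 and 0.50 for phosphoglycerate dehydrogenase and 0.22 and 0.55 for SHMT. For GAPDH A the constant of 0.5 exceeds the values of WT1 and WT2 and narrows the WT spread. As a share of the mean RPKM, its SD was 67.7% in WT and 64.4% in MT, so its relative spread was not wider in MT. MT had the larger SD of log2(RPKM + 0.5) in 58.5% of all genes tested and in 65.3% of those without overlap. Set against counting error, the variance of the WT reads was 1.04 times that expected from counting for the phosphorylase, 1.20 times for the synthase and 0.659 times for phosphoglycerate dehydrogenase. For those genes the WT replicates differed by no more than about the sampling noise. From 3 libraries such a quotient is imprecise, so it cannot show that variation beyond counting error was absent. The same quotient in MT was 26.3 for the phosphorylase, 6.85 for the synthase and 14.3 for phosphoglycerate dehydrogenase. GAPDH A had 3.51 in WT and 54.1 in MT. For SHMT, with many more reads, it was 34.6 in WT and 140 in MT, so its replicates differed beyond counting error in both genotypes.

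The rank of each gene among all tested genes of a library gives its place without regard to scale. SHMT was at percentiles 92.8, 90.0 and 92.6 in WT1 to WT3 and at 76.2, 82.2 and 89.3 in MT1 to MT3. The phosphorylase was at 40.1, 44.0 and 39.7 in WT and at 56.4, 63.3 and 54.5 in MT, below the middle of the tested genes in WT and above it in MT. Phosphoglycerate dehydrogenase was at 22.6, 26.8 and 28.0 in WT and at 55.8, 59.6 and 42.2 in MT. GAPDH A was at 4.77, 2.76 and 11.3 in WT and at 34.0, 52.3 and 30.6 in MT. The synthase was at 15.2, 14.7 and 11.4 in WT and at 2.82, 0.646 and 4.55 in MT, near the bottom of the range.

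The order of the 5 levels differed between the genotypes at its lower end. In all 6 libraries SHMT came first, then the phosphorylase, then phosphoglycerate dehydrogenase. GAPDH A was last in all 3 WT libraries and the synthase was last in all 3 MT libraries. Some neighbours in this order had overlapping counting intervals. In WT3 these were GAPDH A at 0.743 RPKM and the synthase at 0.753 RPKM. In MT1 they were the phosphorylase (12.9 RPKM, interval 11.8 to 14.1) and phosphoglycerate dehydrogenase (12.6 RPKM, interval 10.6 to 14.8). In MT2 the same pair overlapped, with intervals of 17.4 to 20.4 RPKM and 13.8 to 18.9 RPKM.

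**Figure D4:**
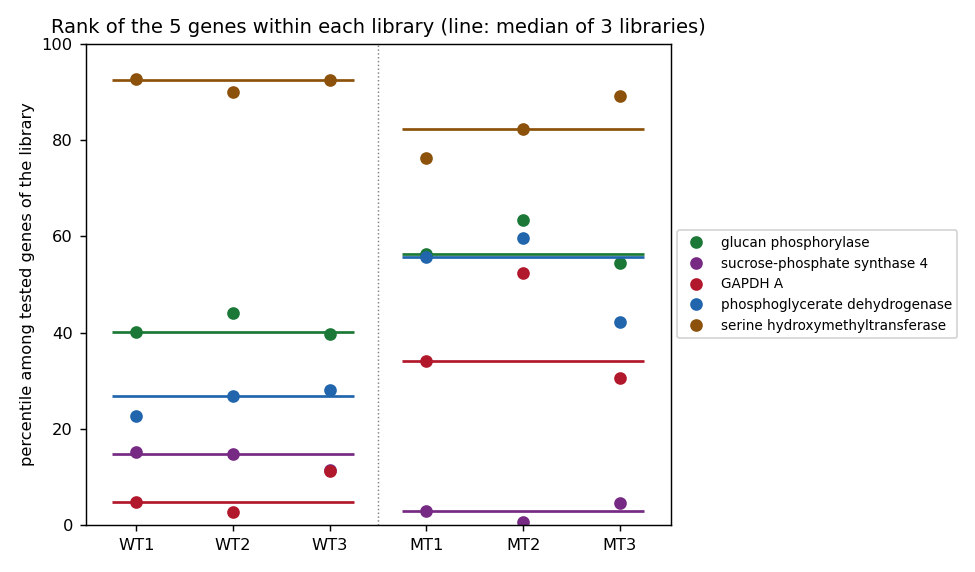
Percentile of each of the 5 genes among the 16719 tested genes of each library, with the median of the 3 libraries of a genotype as a line. SHMT lies at 90.0 or above in WT and at 76.2 to 89.3 in MT, GAPDH A lies at 2.76 to 11.3 in WT and at 30.6 to 52.3 in MT, and the synthase lies at 0.646 to 4.55 in MT.

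From the 291 genes used of the study's list of differential genes, 13 further enzymes and carriers of sugars, sugar phosphates or amino acids were picked by name, counting orange1.1t04497. The choice is not exhaustive, and pectinesterases, 1-aminocyclopropane-1-carboxylate synthase and gamma-glutamyltranspeptidase of that list were not included. The 13 were chosen on these same libraries and are no independent evidence of a direction. Of the 13, 3 had a higher and 10 a lower mean in MT, with a median difference of -1.47 on the scale above, where the median of all genes tested is 0. All 13 were without overlap between genotypes, beside 28.6% of genes tested. Limma with Benjamini-Hochberg adjustment called 0 of 13 (beside 0.0359%), and limma voom also 0 (beside 0 of all 16719 genes tested). In limma, 12 had an unadjusted p under 0.05 (beside 21.8%). Without MT3, limma called 8 of the 13, beside 5.17% of genes tested, and without any other single library it called 0. The choice of the list on this contrast fixes most of these counts, and nothing is read from them.

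Among sugar carriers, SWEET16 (Cs3g14550), whose Arabidopsis counterpart moves sugars across the vacuole membrane, stood at 82.7, 85.4 and 107 RPKM in WT1 to WT3 and at 51.1, 7.09 and 60.9 RPKM in MT1 to MT3. MT2 was far below the other libraries. GPT2 (orange1.1t03425), the plastid exchanger of glucose 6-phosphate and phosphate, stood at 181, 174 and 182 RPKM in WT and at 99.5, 66.4 and 137 RPKM in MT. The sugar phosphate/phosphate translocator orange1.1t02348 was higher in MT, with 5.73 ± 1.57 RPKM in WT and 16.1 ± 5.09 RPKM in MT (SD, n = 3 each). Thus 2 of these 3 carriers had their lower level in MT.

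Among sugar enzymes, the galactinol-sucrose galactosyltransferase Cs2g27610, of the family that makes raffinose from sucrose, stood at 44.4, 54.2 and 52.1 RPKM in WT and at 32.9, 1.74 and 13.6 RPKM in MT. Its MT libraries spread widely, with MT2 lowest. WT was 3.13 times MT, or 6.56 times without MT1 and 2.16 times without MT2. The glucose-6-phosphate 1-epimerase Cs5g02660 had 201 ± 10.2 RPKM in WT and 93.5 ± 52.2 RPKM in MT (SD, n = 3 each). The arabinose 5-phosphate isomerase Cs5g29670 was higher in MT, with 9.29 ± 1.16 RPKM in WT and 28.2 ± 8.99 RPKM in MT (SD, n = 3 each).

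On the side of amino acids, those of the 13 other than orange1.1t04497 had their lower level in MT. Sarcosine oxidase (Cs7g07120), which in animals and microbes makes glycine from sarcosine, stood at 64.0, 50.7 and 68.4 RPKM in WT and at 16.6, 9.05 and 46.3 RPKM in MT. WT was 2.54 times MT, or 4.76 times without MT3 and 1.94 times without MT2. Cysteine synthase (Cs9g06970), which uses O-acetylserine and so draws on serine, stood at 7.39, 9.60 and 7.36 RPKM in WT and at 2.52, 2.60 and 2.22 RPKM in MT. It was the even one among these genes, with nearly equal MT libraries. L-3-cyanoalanine synthase 2 (orange1.1t00386), which joins cyanide and cysteine, stood at 410, 479 and 587 RPKM in WT and at 98.7, 41.5 and 299 RPKM in MT. WT was 3.36 times MT, or 7.02 times without MT3 and 2.475 times without MT2. Proline dehydrogenase 2 (Cs6g19180), which breaks down proline in mitochondria, had 85.1 ± 20.5 RPKM in WT and 43.1 ± 10.1 RPKM in MT. The GABA transporter 2 (Cs5g02480) had 19.8 ± 2.89 RPKM in WT and 10.6 ± 4.39 RPKM in MT, and the cationic amino acid transporter 1 (Cs2g09600) had 13.7 ± 3.35 RPKM in WT and 2.05 ± 1.33 RPKM in MT (SD, n = 3 each). The last had the widest difference of the 13, at -2.71 (SE 0.37) relative to the median gene. WT was 6.67 times MT for it, or 10.7 times without MT3 and 5.51 times without MT1.

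**Figure D5:**
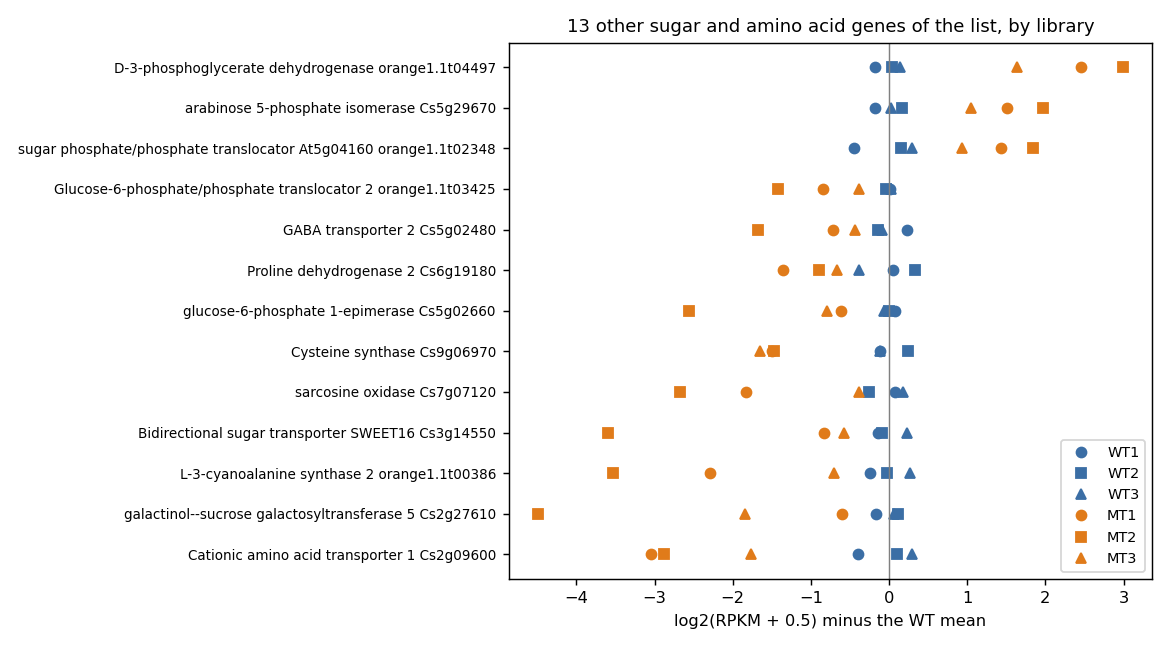
Difference of log2(RPKM + 0.5) from the WT mean for the 13 other listed genes (WT blue, MT orange, replicate by symbol). The 3 genes higher in MT are at the top and the 10 lower genes below. MT2 is the furthest MT library in 10 of 13 and MT3 the nearest in 10 of 13.

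Markers of peel cell types and of pigment change also differed between the genotypes. The 8 marker genes also come from the study's differential list, so the tissue could not be checked against independent markers. All 8 were without overlap, beside 28.6% of genes tested, a count that follows from how they were chosen. Limonene synthase 1 (Cs5g22980), a terpene enzyme of citrus oil glands, had 2.82 ± 1.18 RPKM in WT and 0.128 ± 0.131 RPKM in MT (SD, n = 3 each). The 2 genes matched to the cutin acyltransferase DCR summed to between 2412 and 3167 RPKM in WT and between 195 and 1950 RPKM in MT. The 3 genes tied to epidermis and stomata went in different directions, so their sum is no measure of a cell type. It spanned 23.6 to 27.0 RPKM in WT and 18.9 to 30.6 RPKM in MT. HDG5 (Cs3g09300) had 2.11 ± 0.233 RPKM in WT and 18.2 ± 6.48 RPKM in MT. MUTE (Cs9g06130) had 23.2 ± 1.88 and 3.85 ± 1.69 RPKM, and EPFL9 (Cs7g16890) had 0 reads in every WT library and 29 reads in MT. Chlorophyllide a oxygenase (Cs3g19690), of chlorophyll b synthesis, had 35.1 ± 5.82 RPKM in WT and 19.5 ± 5.65 RPKM in MT, and red chlorophyll catabolite reductase (Cs1g22680), of chlorophyll breakdown, had 17.4 ± 3.45 and 6.63 ± 2.42 RPKM (SD, n = 3 each). The part of these markers in the levels of the 5 enzymes was not tested.

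For each of the 5 genes, the 3 genes most like it were taken by Pearson's r of log2(RPKM + 0.5) over the 6 libraries, among 12399 genes with a mean of at least 3 RPKM. These 6 points fall into 2 genotypes and share each library's depth and order, so a high r says mainly that a gene shares the split between genotypes and the order of the MT libraries. Phosphoglycerate dehydrogenase was closest to orange1.1t00826 (r = 0.999), orange1.1t04497 (r = 0.998) and Cs6g21460 (r = 0.998), which had 5.36 ± 1.06 RPKM in WT and 74.2 ± 34.5 RPKM in MT. The phosphorylase was closest to Cs3g15630 (r = 0.999), to the cytochrome P450 89A2 gene Cs7g15480 (r = 0.998), which had 1.83 ± 0.354 RPKM in WT and 16.5 ± 7.84 RPKM in MT, and to Cs3g25520 (r = 0.998). GAPDH A was closest to Cs6g19480 (r = 0.997), Cs5g02500 (r = 0.997) and Cs6g11470 (r = 0.995), the last at 2.74 ± 1.22 RPKM in WT and 50.3 ± 40.6 RPKM in MT (SD, n = 3 each). A high r says nothing of the size of a difference, and other similar genes differed much less. Mean RPKM in WT and MT was 5.88 and 7.87 for orange1.1t00826, 25.8 and 44.0 for Cs3g15630, and 64.6 and 74.1 for Cs3g25520. It was 16.8 and 29.0 for Cs6g19480 and 8.60 and 14.6 for Cs5g02500.

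Fewer genes resembled the pair of enzymes with the lower level in MT. The synthase was closest to Cs3g20410 (r = 0.998), Cs5g32720 (r = 0.995) and Cs5g26650 (r = 0.994), and SHMT to Cs7g27180 (r = 0.996), Cs1g24550 (r = 0.992) and Cs2g04270 (r = 0.992). An r above 0.95 was reached by 548 genes (4.42%) with the phosphorylase, by 462 (3.73%) with GAPDH A and by 452 (3.65%) with phosphoglycerate dehydrogenase. It was reached by 80 genes (0.645%) with the synthase and by 86 (0.694%) with SHMT. As given above, genes without overlap were also more often higher than lower in MT. Both kinds of count use RPKM with the median log2 difference of 0.15 left in, by which the typical gene leans toward MT. The part of this shift in the uneven counts was not tested. Other than orange1.1t04497 and Cs7g15480, the similar genes carry no name in the sources used here.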

How the data were processed

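RNA of ripe pericarp from 3 WT and 3 MT samples was enriched for mRNA, sequenced and, per the study's methods, aligned with TopHat to the sweet orange genome, another species, with at most 2 mismatches. Bowtie2 2.1.0 is named in the submitters' processing notes. The authors deposited 1 RPKM value per gene and library, made from uniquely mapped reads. The counter and its use of strand are not given in the sources used here. All 6 columns were used (0 unused).

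Library totals, gene lengths and whole reads were recovered from the RPKM steps (100% of 23454 genes with a value, within 0.005 reads). These served exact Poisson 95% intervals, with no count model. Genes averaging 0.3 RPKM or more over the 6 libraries were compared by limma 3.58.1 (R 4.3.3) on log2(RPKM + 0.5), eBayes with trend, two-sided, Benjamini-Hochberg threshold 0.05, while the authors used DESeq on counts. The code was tested on simulated data.

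The text names the 5 genes, the 13 listed genes, 8 markers and the 3 genes most like each of the 5. A wider list of pathway genes by product name could not be made. The members and lists were chosen with earlier results of these data known. Alternatives were other pseudocounts, filters, scalings, a replicate block, no trend, voom and leaving out each library. Python 3.11.15, numpy 2.4.6, pandas 2.3.3, scipy 1.17.1 and matplotlib 3.10.9 were used.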

Additional observations from a re-analysis of the deposited data

How the results depend on the processing

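The difference of each of the 5 genes kept its direction in 60 of 60 values under alternatives. Most of this was fixed in advance, and nothing is read from it. The genes were chosen on this contrast and their genotypes do not overlap, so leaving out a library could hardly turn a direction. The replicate block returns the main differences. Of the 60 values, 5 moved by more than the spread between replicates. Cs5g19060 (-1.11 relative to the median gene) became -1.94 with a pseudocount of 0.1, -0.77 with a pseudocount of 1 and -2.56 with limma voom on the recovered reads. Cs2g14940 (2.77) became 3.58 with a pseudocount of 0.1 and 3.80 with voom. Cs2g14940 has few reads in WT and Cs5g19060 has few in both genotypes, and a smaller constant shrinks such differences less. Leaving out each library in turn gave 0.84 to 1.07 for Cs6g22020, -1.31 to -0.84 for Cs5g19060, 2.35 to 3.03 for Cs2g14940, 1.69 to 2.15 for orange1.1t04496 and -1.33 to -0.80 for Cs3g16860. A mean of at least 3 RPKM leaves out Cs5g19060. On the ratio of mean RPKM, a measure added after the data had been seen, leaving out 1 library moved 2 of the 5 genes (Cs2g14940 and Cs5g19060) and 4 of the 13 listed genes by over 1.5 times. It could turn no direction, since none of these genes overlaps between genotypes.

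The count of genes called by limma with Benjamini-Hochberg adjustment, 6 of 16719, was 10 with a pseudocount of 0.1, 47 without a filter, 15 without the trend, 11 after rescaling by the median ratio, 9 with a mean of at least 3 RPKM and 0 with voom (3580 at an unadjusted p under 0.05). Leaving out each library gave 0 to 864, with 0 without WT1, WT2 or WT3 (2696, 2970 and 2261 unadjusted), 5 without MT1, 11 without MT2 and 864 without MT3. Of the 13 listed genes, called 0 times, 1 was called without the trend and 0 to 8 on leaving out each library, the 8 without MT3. The cause was not tested.

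With the replicate number as a block, 122 genes, 3 of the 13 listed genes and 0 of the 5 members were called. Deviations from the genotype means of same-numbered libraries correlated across genes with r of -0.05, 0.19 and 0.16. Libraries of different number gave r from -0.29 to 0.16, and the 0.19 of WT2 and MT2 was the highest of all. These values do not settle whether the numbers are pairs, and the main comparison did not take them as pairs.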
